A study of Mus musculus with 9 samples.

Results

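Paired receptors are families of related surface proteins on myeloid cells in which some members activate the cell and others restrain it. The 10 genes described here are Trem2, Cd300ld, Siglec1, Cd33, Sirpa, Pirb, Lilrb4a, Pilra, Cd300a and Cd300lf, taken by their symbols from an expression table of 25124 mouse genes. All 10 were found in the table, and all 10 had at least 1 TPM (transcript abundance scaled by gene length and library total) in at least 4 libraries, the filter that left 15704 genes for testing. The libraries came from whole ear skin of C57BL/6 mice whose ears were swabbed every other day with Staphylococcus epidermidis strain LM087, a skin bacterium, and were sampled on day 8. In 4 libraries the mice had also received anti-CTLA-4, an antibody against a T cell receptor that restrains T cell activation, and in 5 they had the bacterium alone. Both groups carried the bacterium, and skin without it or with the antibody alone was not analysed here. The sources name no clone, dose or schedule of the antibody. The labels number the replicates but do not say that each came from a separate mouse, so each p-value reflects only how far these libraries scatter, which may be partly technical.

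The inhibitory members of these families carry tyrosine motifs in their cytoplasmic tails that recruit phosphatases, chiefly SHP-1 and SHP-2. The activating members have short tails and signal through the adaptors DAP12 or the Fc receptor gamma chain, which engage the kinase Syk. In skin, such receptors are known from macrophages, monocytes, neutrophils, dendritic cells and mast cells, where they recognise sialic acids, lipids of dying cells, the protein CD47 or MHC class I.

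In the anti-CTLA-4 skin, 7 of the 10 receptor genes rose, none fell and 3 were not called. By ratio of mean TPM the called genes ran from 1.91 for Sirpa to 3.81 for Cd300lf, and for each of them every anti-CTLA-4 library lay above every library with the bacterium alone. They included 5 inhibitory receptors (Sirpa, Pirb, Lilrb4a, Cd300a and Cd300lf), the activating receptor Cd300ld and the sialic acid receptor Siglec1. Trem2, Pilra and Cd33 were not called, and their groups overlapped. Among all genes tested, 7.16% were called higher and 4.48% lower by limma at an adjusted p of 0.05. In 8.02% of them every anti-CTLA-4 library lay above every library with the bacterium alone, and in 6.39% below. The median difference was 1.11 on the log2(TPM + 1) scale over the 10 members and -0.01 over all genes tested. Whole skin mixes many cells, and in such bulk samples more cells of a type and more RNA per cell cannot be told apart.

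**Figure D1:**
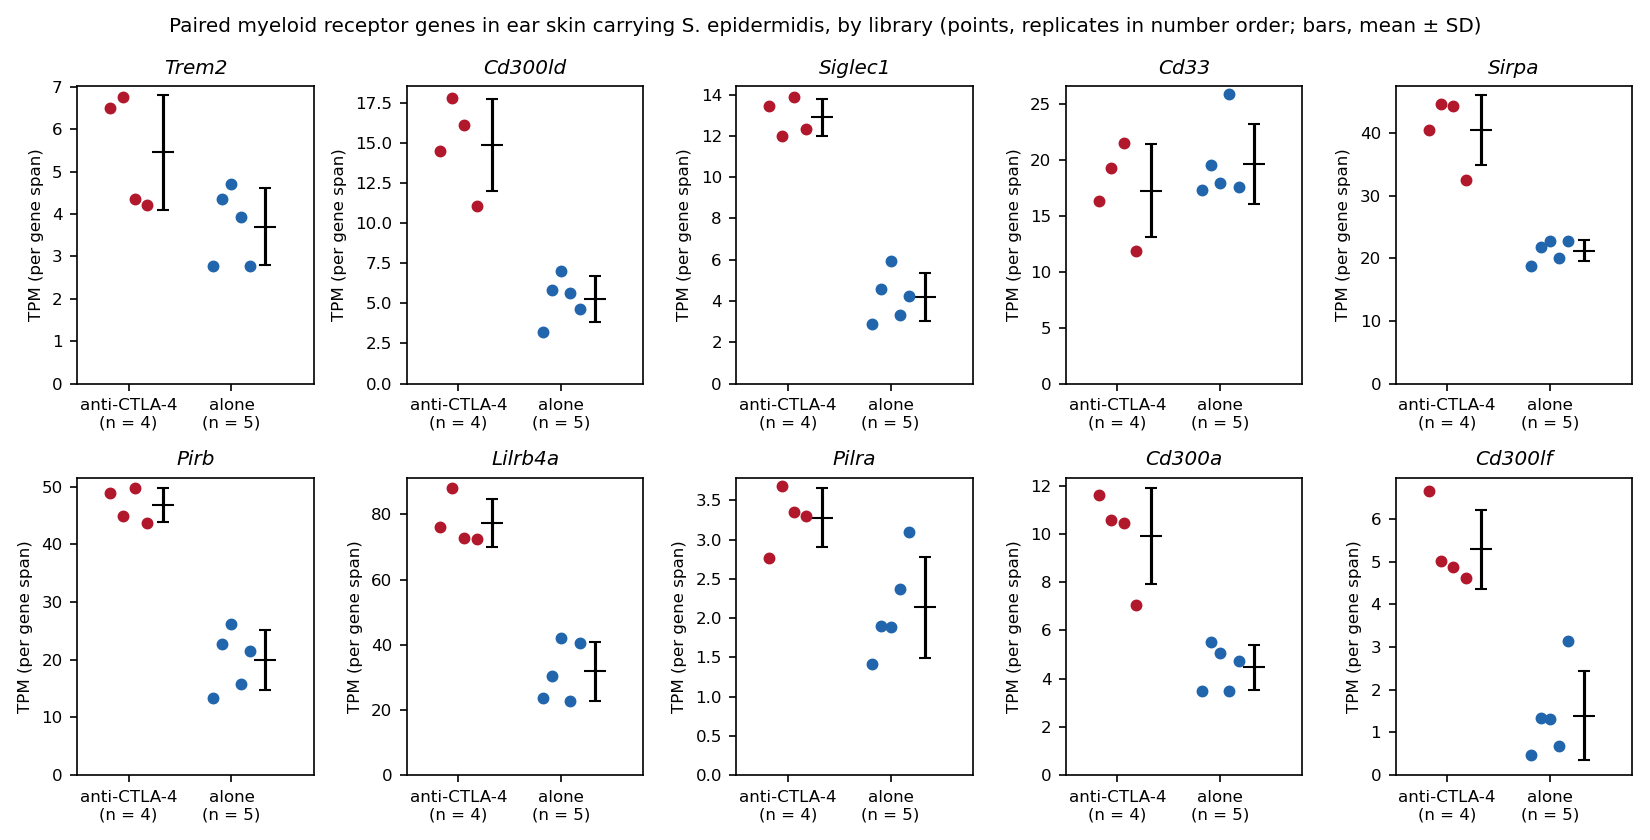
Level of each receptor gene in TPM per gene span (vertical axis, from 0, its own scale in each panel) in each library of the anti-CTLA-4 group (red, n = 4) and of the group with S. epidermidis alone (blue, n = 5), with the mean and SD beside the points. The groups lie apart for the 7 called genes and overlap for Trem2, Cd33 and Pilra.

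The libraries held between 10213768 and 13868671 reads on the listed genes. These numbers were recovered from the table itself. The length the table gives equals the gene's end minus its start for 99.2% of the genes. The check covered 6921 to 7742 genes a library, those above 0 and under 100 reads and short enough that rounding of TPM hardly moved the count. Longer genes were not checked, so the totals are approximate. Every TPM value checked, multiplied by that length, was a whole multiple of a constant within 0.1 reads in each library, against at most 22.1% with the lengths shuffled. The TPM of the genes checked is thus per base of the whole gene with its introns, and a level compared between genes depends on intron length. Intervals given for read numbers cover counting error only. Of 18 macrophage and monocyte marker genes 13 rose, and of 8 markers shared by leukocytes 8 rose, in the same contrast. The 18 macrophage markers summed to 1434 to 1953 TPM in anti-CTLA-4 skin and 990 to 1246 TPM with the bacterium alone.

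Promoter sequences were read for 7 of the 10 members, as given by RefSeq on GRCm38.p6 (mm10); Siglec1, Sirpa and Lilrb4a had none in the table used. All 7 are shown, 4 called higher and 3 not called, so that the motifs of myeloid factors can be read in both. Each sequence gives 240 bases before the gene's start and 10 bases from it, 5′ to 3′ on the gene's own strand, which is plus for Cd300a and Trem2 and minus for the other 5. Capitals mark GAGGAA, the core of sites of the myeloid factor PU.1, read on both strands (TTCCTC on the other), its longer form GAGGAAGT where present, and in Pilra a match to the interferon response motif, GAAA and GAAA with any 2 bases between them. Pirb, Cd300ld, Cd300lf and Cd300a were called higher, and Pilra, Cd33 and Trem2 were not.
Pirb (chr7:3720373-3720622): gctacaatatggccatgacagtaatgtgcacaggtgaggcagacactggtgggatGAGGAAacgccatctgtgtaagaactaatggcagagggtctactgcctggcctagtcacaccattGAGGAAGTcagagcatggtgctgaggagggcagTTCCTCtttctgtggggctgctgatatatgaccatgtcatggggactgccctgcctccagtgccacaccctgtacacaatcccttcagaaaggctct
Cd300ld (chr11:114989877-114990126): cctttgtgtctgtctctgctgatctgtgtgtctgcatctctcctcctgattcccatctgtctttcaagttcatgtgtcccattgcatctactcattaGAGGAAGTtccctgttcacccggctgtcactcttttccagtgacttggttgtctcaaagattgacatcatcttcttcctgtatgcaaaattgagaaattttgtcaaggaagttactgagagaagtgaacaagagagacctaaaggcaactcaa
Cd300lf (chr11:115133983-115134232): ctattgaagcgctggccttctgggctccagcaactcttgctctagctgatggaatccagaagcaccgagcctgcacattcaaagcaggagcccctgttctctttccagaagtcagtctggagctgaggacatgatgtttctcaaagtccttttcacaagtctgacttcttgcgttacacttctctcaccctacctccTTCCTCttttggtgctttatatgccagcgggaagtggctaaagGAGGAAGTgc
Cd300a (chr11:114889801-114890050): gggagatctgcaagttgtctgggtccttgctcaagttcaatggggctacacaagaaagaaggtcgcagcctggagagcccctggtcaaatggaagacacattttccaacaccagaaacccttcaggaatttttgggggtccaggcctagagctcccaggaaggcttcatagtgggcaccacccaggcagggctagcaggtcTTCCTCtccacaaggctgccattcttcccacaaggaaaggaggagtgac
Pilra (chr5:137836269-137836518): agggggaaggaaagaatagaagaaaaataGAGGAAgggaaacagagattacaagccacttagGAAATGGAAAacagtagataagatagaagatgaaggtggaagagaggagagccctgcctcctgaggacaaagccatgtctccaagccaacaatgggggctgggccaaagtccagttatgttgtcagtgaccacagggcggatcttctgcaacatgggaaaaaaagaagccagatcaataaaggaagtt
Cd33 (chr7:43533162-43533411): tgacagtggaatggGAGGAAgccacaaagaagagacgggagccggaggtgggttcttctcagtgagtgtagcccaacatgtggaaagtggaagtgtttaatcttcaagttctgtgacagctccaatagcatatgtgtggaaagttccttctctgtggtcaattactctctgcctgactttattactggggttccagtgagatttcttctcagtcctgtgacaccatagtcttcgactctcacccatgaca
Trem2 (chr17:48346161-48346410): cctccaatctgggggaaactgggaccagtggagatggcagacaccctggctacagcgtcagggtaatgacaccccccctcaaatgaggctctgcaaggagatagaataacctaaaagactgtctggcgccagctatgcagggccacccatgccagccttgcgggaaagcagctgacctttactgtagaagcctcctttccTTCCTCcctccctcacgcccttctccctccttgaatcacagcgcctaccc

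The search covered windows of 300 bases, 250 before and 50 after the start, in 32851 promoters, for 9 motifs on both strands. GAGGAA was found in 7 of 7 member promoters and in 28.3% of all promoters. GAGGAAGT, which contains it, was found in 3 of 7, those of Pirb, Cd300ld and Cd300lf, and in 3.20% of all promoters. Cd300a, which was also called higher, holds GAGGAA on the opposite strand and has no match to GAGGAAGT. Its first base lay 143 bases before the start in Cd300ld, 120 bases in Pirb and at the start itself in Cd300lf. The interferon motif was found in 1 of 7, Pilra, 178 bases before the start, and in 3.44% of all promoters. The ETS-IRF composite, GGAA and GAAA with any 2 bases between them, was found among the 7 in Pilra as well, and in 2.72% of all. TTGCNNAA, a motif of C/EBP factors, was found in Cd300a, Pilra and Trem2 and in 10.8% of all promoters. TGANTCA, the AP-1 motif, was found in Trem2 (7.81% of all), and TATAAA in Cd300lf on the opposite strand (13.6%). The motif TTCNNNGAA (8.30%) and the NF-kB motif, GGG and TTTCC with any 2 bases between them (1.63%), had no match in the 7 windows. These matches describe letters in the windows and do not show binding.

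Trem2 encodes an activating receptor that binds lipids and apolipoproteins and signals through DAP12. It is a gene of 5875 bases at chr17:48346401-48352276 on the plus strand (mm10, as all positions here). Its level was 6.51, 6.76, 4.34 and 4.22 TPM in the anti-CTLA-4 libraries, against 2.77, 4.35, 4.71, 3.93 and 2.76 TPM with the bacterium alone. Replicates 1 and 2 of the antibody group stood above the other libraries, and replicates 3 and 4 lay within the range of the other group. It averaged 5.46 ± 1.36 TPM with the antibody and 3.71 ± 0.899 TPM without (SD, n = 4 and n = 5), a log2 difference of 0.45 ± 0.18 (SE) with a limma adjusted p of 0.135. It rests on 43 to 58 reads a library in anti-CTLA-4 skin and 23 to 44 reads with the bacterium alone.

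Cd300ld, a short-tailed CD300 receptor of mouse myeloid cells that pairs with the Fc receptor gamma chain, rose. The gene lies at chr11:114982446-114989886 on the minus strand. It had 14.5, 17.8, 16.1 and 11.1 TPM in anti-CTLA-4 skin, against 3.24, 5.85, 7.02, 5.66 and 4.65 TPM with the bacterium alone. The groups did not overlap, and the lowest library with the antibody was 1.58 times the highest without it. The log2 difference was 1.35 ± 0.19 (SE), with a limma adjusted p of 0.00372.

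Siglec1 encodes CD169, a sialic acid receptor of macrophages with many immunoglobulin domains and no inhibitory motif in its tail. It lies at chr2:131069220-131086765 on the minus strand. It had 13.4, 12.0, 13.9 and 12.3 TPM in anti-CTLA-4 skin, against 2.90, 4.57, 5.92, 3.33 and 4.22 TPM with the bacterium alone. The lowest library with the antibody was 2.02 times the highest without it, the widest gap among the 10 genes. Its log2 difference of 1.45 ± 0.15 (SE) had the smallest limma adjusted p of the 10, at 0.00217.

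Cd33, the other sialic acid receptor among the members, is inhibitory in humans, and the tail of the mouse protein differs. The gene lies at chr7:43527456-43533171 on the minus strand. Its level was 16.3, 19.3, 21.5 and 11.9 TPM in anti-CTLA-4 skin, against 17.3, 19.5, 17.9, 25.9 and 17.5 TPM with the bacterium alone. The ranges overlapped, with the lowest library in the antibody group and the highest in the other. Its mean of 17.2 ± 4.17 TPM in anti-CTLA-4 skin and 19.6 ± 3.60 TPM with the bacterium alone gave a log2 difference of -0.19 ± 0.17 (SE), with a limma adjusted p of 0.527. Cd33 was the only member with a negative difference. Its promoter window holds GAGGAA 226 bases before the start and has no match to GAGGAAGT.

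Sirpa encodes SIRP-alpha, which binds CD47 on other cells and restrains phagocytosis. The gene lies at chr2:129595462-129632228 on the plus strand. It had 40.4, 44.7, 44.3 and 32.5 TPM in anti-CTLA-4 skin, against 18.8, 21.8, 22.7, 20.1 and 22.7 TPM with the bacterium alone. Replicate 4 of the antibody group was the lowest of its group and still above all 5 libraries of the other. Its difference on the log2 scale was 0.89 ± 0.10 (SE), with a limma adjusted p of 0.00227, and 1060 to 2742 reads a library stood behind it, the most of any member.

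Pirb encodes the inhibitory paired immunoglobulin-like receptor B, which binds MHC class I. It lies at chr7:3712505-3720382 on the minus strand. Pirb had 48.9, 44.9, 49.8 and 43.7 TPM in anti-CTLA-4 skin, against 13.4, 22.8, 26.2, 15.8 and 21.6 TPM with the bacterium alone. The antibody libraries were close together and the others spread more, without overlap. The change came to a log2 difference of 1.23 ± 0.17 (SE), with a limma adjusted p of 0.00387.

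Lilrb4a encodes gp49B, an inhibitory receptor of mast cells and other myeloid cells. It lies at chr10:51490898-51496611 on the plus strand. It had 76.0, 88.1, 72.6 and 72.4 TPM in anti-CTLA-4 skin, against 23.6, 30.4, 42.0, 22.6 and 40.5 TPM with the bacterium alone. Its libraries with the antibody all lay above 72 TPM, and none without it passed 42 TPM. On the log2 scale it differed by 1.30 ± 0.19 (SE), with a limma adjusted p of 0.00426. Lilrb4a and its neighbour Lilr4b are near-identical copies, as are Pirb and the Pira genes, so reads may be split between copies and the level of either copy is uncertain.

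Pilra encodes an inhibitory receptor for sialylated O-glycoproteins. It lies at chr5:137821952-137836278 on the minus strand and overlaps Zcwpw1 on the other strand. Its level was 2.77, 3.68, 3.36 and 3.31 TPM in anti-CTLA-4 skin, against 1.41, 1.91, 1.89, 2.37 and 3.10 TPM with the bacterium alone. The groups overlapped through replicate 1 of the antibody group and replicate 5 of the other. The log2 difference was 0.47 ± 0.15 (SE) with a limma adjusted p of 0.0696, and without replicate 5 of the group with the bacterium alone it was 0.57 with an adjusted p of 0.0194. No source says whether reads were counted by strand, and reads from Pilra and from Zcwpw1 cannot be told apart where they overlap.

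Cd300a, an inhibitory receptor for phosphatidylserine and phosphatidylethanolamine, lipids exposed on dying cells, rose. The gene lies at chr11:114890041-114901941 on the plus strand. It had 11.6, 10.6, 10.5 and 7.04 TPM in anti-CTLA-4 skin, against 3.50, 5.51, 5.08, 3.48 and 4.75 TPM with the bacterium alone. Replicate 4 of the antibody group was again the lowest of its group, above all of the other. Its log2 difference was 1.00 ± 0.16 (SE), with a limma adjusted p of 0.00597.

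Cd300lf, a further inhibitory receptor for lipids of dying cells, also known as CLM-1, rose by the largest ratio of means. It lies at chr11:115116214-115133992 on the minus strand. It had 6.66, 5.00, 4.87 and 4.62 TPM in anti-CTLA-4 skin, against 0.477, 1.34, 1.31, 0.687 and 3.14 TPM with the bacterium alone. Among the libraries with the bacterium alone, replicate 5 stood well above the other 4. The log2 difference was 1.48 ± 0.27 (SE), with a limma adjusted p of 0.00927. With a pseudocount of 0.1 in place of 1 the difference was 2.10, and by voom on the recovered reads, added after seeing the data, it was 2.23. The lowest library held 13 reads, with an exact Poisson 95% interval of 6.92 to 22.2 reads or 0.254 to 0.816 TPM. The gene reached 1 TPM in 3 libraries with the bacterium alone and passed the filter through the antibody group.

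All 7 called genes were called again with each of the 9 libraries left out in turn, with adjusted p-values up to 0.0295 (Cd300lf). The voom fit called 8 members higher, Pilra among them, and 0 lower, against 11.5% and 7.3% of the genes it tested. The members did not follow each other in every library. After the group means were removed, the correlation over the 9 libraries, given as a description, was 0.97 between Siglec1 and Pirb, 0.84 between Sirpa and Cd300a, and -0.26 between Cd33 and Lilrb4a. In the antibody group, replicate 4 was the lowest library for 8 of the 10 members, and its macrophage markers were also the lowest of that group, with a mean log2(TPM + 1) of 5.16 against 5.48 to 5.55 in the other 3. With the bacterium alone, replicate 1 was the lowest for 7 of the 10 members, and its macrophage marker mean of 4.24 was the lowest of its 5 libraries, the others lying at 4.44 to 4.78.

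Per base of gene span, Lilrb4a stood highest in anti-CTLA-4 skin at a mean of 77.3 TPM. Pirb at 46.8 TPM and Sirpa at 40.5 TPM followed, with overlapping libraries. Cd33 at 17.2 TPM, Cd300ld at 14.9 TPM and Siglec1 at 12.9 TPM formed a further overlapping group. Cd300a at 9.93 TPM came next, and its highest library, at 11.6 TPM, passed the lowest of Cd300ld, at 11.1 TPM. Trem2 at 5.46 TPM and Cd300lf at 5.29 TPM followed with overlapping libraries, and Pilra was lowest at 3.28 TPM. With the bacterium alone, Lilrb4a at 31.8 TPM, Sirpa at 21.2 TPM, Pirb at 19.9 TPM and Cd33 at 19.6 TPM each overlapped the next and stood above the other 6, which lay between 1.39 TPM (Cd300lf) and 5.28 TPM (Cd300ld). By gene span, Cd33 therefore ranked with Sirpa and Pirb with the bacterium alone, and with Cd300ld and Siglec1 in anti-CTLA-4 skin. Set against exon length (GENCODE M21), with all reads taken as exonic, Sirpa led at 54.8 RPKM (reads per kb of exon, scaled to the library's reads) in anti-CTLA-4 skin and 28.1 RPKM with the bacterium alone. On that scale Siglec1, whose exons are long, had 4.09 RPKM in anti-CTLA-4 skin and 1.30 RPKM with the bacterium alone, where it had the lowest mean of the 10. Cd33 had 4.93 RPKM in anti-CTLA-4 skin and 5.48 RPKM with the bacterium alone. In the latter group its libraries overlapped those of Pirb (7.28 RPKM) but lay far below those of Sirpa, so its rank beside Sirpa held per gene span only.

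The same contrast was fitted on levels set against the macrophage markers, by subtracting each library's mean log2(TPM + 1) of the 18 markers. On this scale most of the transcriptome fell, with 91.6% of genes called lower and 0.611% called higher, and the median over all genes tested was -0.89. Siglec1 was higher by 0.57 ± 0.14 (SE; limma adjusted p = 0.00169) and Cd300ld by 0.47 ± 0.14 (adjusted p = 0.00593), and both calls held with each library left out. Cd300lf (0.60 ± 0.23; adjusted p = 0.0260), Lilrb4a (0.41 ± 0.16; adjusted p = 0.0273) and Pirb (0.35 ± 0.14; adjusted p = 0.0319) were also called higher. The unadjusted limma p-values of Cd300lf, Lilrb4a and Pirb were 0.0235, 0.0247 and 0.0290. With most genes called, the adjustment hardly changed them. Every gene also shared the subtracted marker mean and its error. These calls therefore carry less weight than those of the fit without the subtraction. Cd300a differed by 0.12 and Sirpa by 0.01, neither called. Cd33 was lower by this measure, with a difference of -1.07 ± 0.18 (adjusted p = 0.000192), and was called lower under every alternative run. Trem2 (-0.43 ± 0.16; adjusted p = 0.0195) and Pilra (-0.41 ± 0.18; adjusted p = 0.0464) were called lower as well, as were most genes of the table.

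Several of these calls lay near the threshold, and fits with 8 libraries ended them while the direction stayed. Cd300lf was no longer called without replicate 1 or 4 of either group, where its difference was 0.52 to 0.56 (adjusted p up to 0.0689). Lilrb4a was not called without replicate 2 or 4 of either group (0.33 to 0.40; adjusted p up to 0.0742). For Pirb this held without replicate 1, 3 or 4 of the antibody group or replicate 1 or 4 of the other (0.29 to 0.35; adjusted p up to 0.0802). Trem2 was not called without replicate 3 of the antibody group (-0.32; adjusted p = 0.0942). For Pilra it held without replicate 1, 2 or 3 of the antibody group or replicate 1, 4 or 5 of the other (-0.43 to -0.31; adjusted p up to 0.138). Other settings with all 9 libraries ended calls too. Pirb was not called with robust variance, protein-coding genes only, the replicate block, log2(TPM + 0.1) or a filter of 5 TPM (limma adjusted p of 0.0530 to 0.0735). Over all alternatives that tested the gene, Pirb was called in 12 of 24 and Pilra in 12 of 23.

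**Figure D2:**
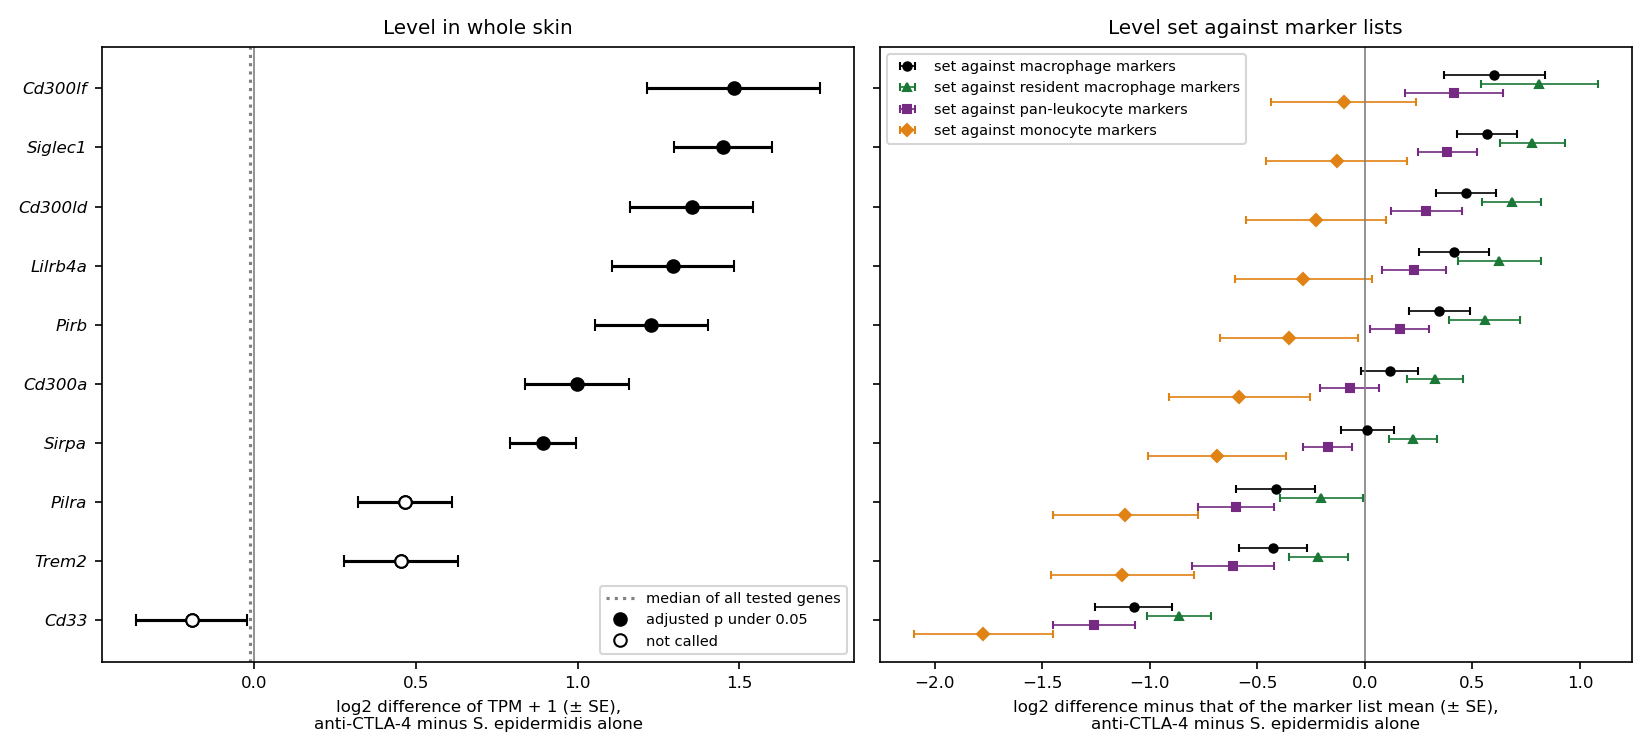
Left, log2 difference of TPM + 1, anti-CTLA-4 minus S. epidermidis alone, with its SE for each receptor gene (filled, called; open, not called), beside the median of all genes tested. Right, the same difference after subtracting the mean of a marker list, where points right of 0 moved more than the list. Cd33, Trem2 and Pilra lie left of 0 against all 4 lists, Cd33 farthest, and every member does against monocyte markers. The median of all genes tested, not drawn there, is -0.89 (macrophage), -0.68 (resident macrophage), -1.08 (pan-leukocyte) and -1.59 (monocyte).

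The answer for most members depended on the marker list. Against 8 markers shared by leukocytes, Siglec1 was called higher, Cd33, Trem2 and Pilra were called lower, and 6 were not called (background 0.318% higher and 94.4% lower). A pair of further lists, chosen after seeing the data, split the macrophage markers. Against 9 markers of resident macrophages, 6 members were called higher and Cd33 lower (background 1.03% and 85.6%). Against 5 monocyte markers (Ccr2, Ly6c2, Itgam, Fcgr1 and Cd14), no member was called higher and 4 were called lower (background 0.115% and 97.7%). The lists themselves had moved by different amounts. Fcgr1, an Fc receptor, averaged 17.2 ± 2.34 TPM in anti-CTLA-4 skin and 4.53 ± 2.40 TPM with the bacterium alone (SD, n = 4 and n = 5; log2 difference 1.82, limma adjusted p = 0.00611). Mertk, a receptor for dying cells on resident macrophages, averaged 6.94 ± 0.832 and 6.57 ± 1.29 TPM in the same order and was not called. Csf1r and Cd163 of the resident list were not called either. The rest of that list, Adgre1, C1qa, C1qb, C1qc, Mrc1 and Folr2, rose, by log2 differences of 0.66 (Adgre1) to 1.04 (Mrc1).

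Markers of other cells that can carry these receptors were read beside the members. Of 10 neutrophil markers 6 were tested and 4 of them rose, and the 10 summed to 1522 to 4468 TPM in anti-CTLA-4 skin and 112 to 1483 TPM with the bacterium alone. That sum was carried by S100a8 and S100a9, which averaged 1904 and 630 TPM with the antibody and 476 and 204 TPM without, and neither was called (limma adjusted p = 0.0821 and 0.115). Of the 4 that rose, Retnlg reached 1 TPM in 1 library with the bacterium alone and passed the filter through the antibody group. Their defining marker Ly6g was listed at 0 in 8 of the 9 libraries. Mast cell markers rose for 4 of 7 (277 to 288 TPM in sum with the antibody, 164 to 234 TPM without). Markers of dendritic and Langerhans cells rose for 1 of 10 (75.5 to 85.6 TPM with the antibody, 77.5 to 91.7 TPM without). Of 8 T cell markers 7 rose, while 0 of 7 fibroblast and 0 of 5 endothelial markers did. Of 6 tested hair follicle markers 4 fell (list median -0.55), and of 6 skeletal muscle markers 1 fell (list median -0.51). The part of each cell type in the receptor values was not tested.

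**Figure D3:**
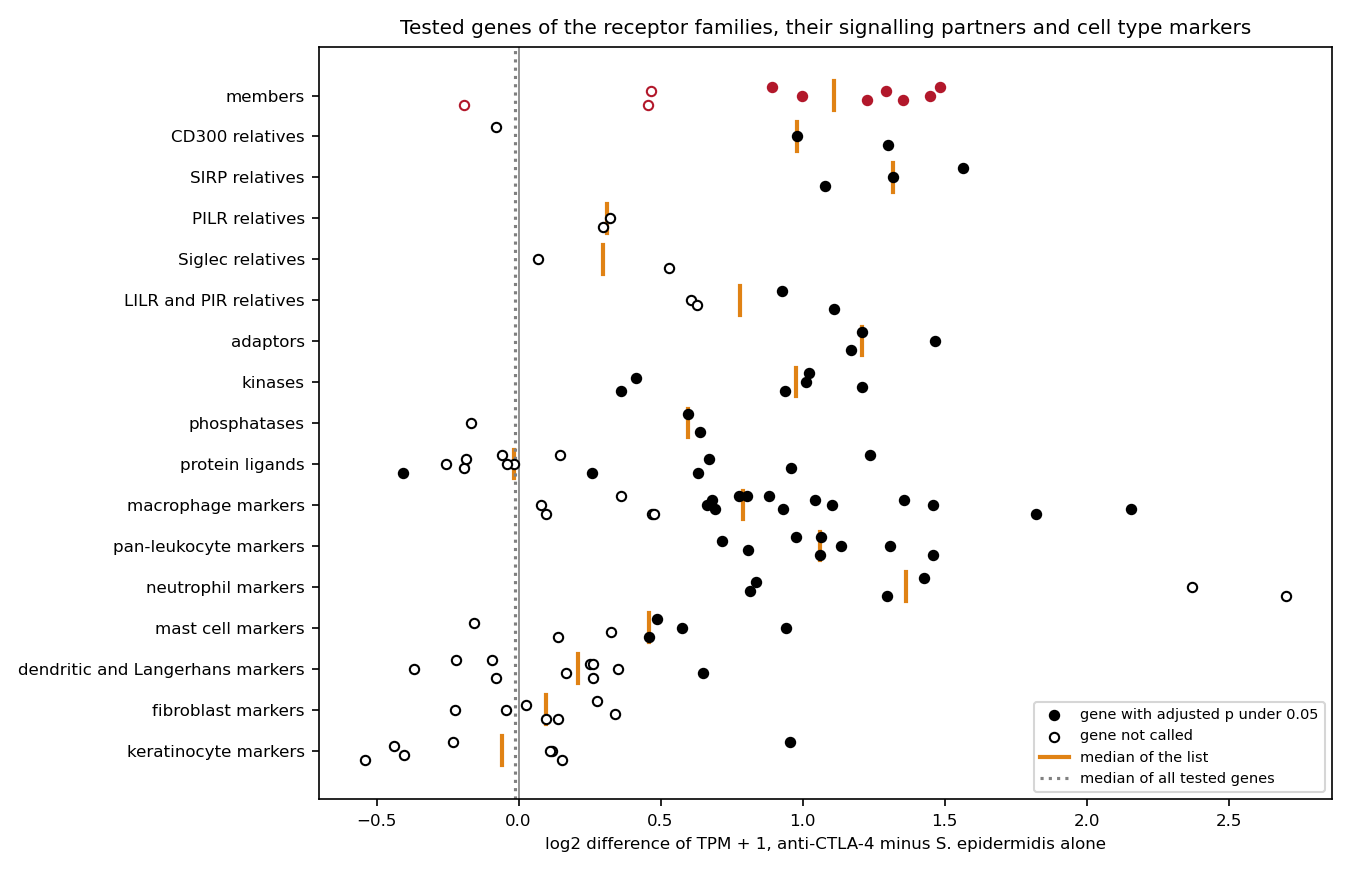
Log2 difference of TPM + 1 (horizontal axis), anti-CTLA-4 minus S. epidermidis alone, of every tested gene in the receptor families, signalling lists and marker lists; filled points were called, open points were not, and the bar is the list's median. The median is 1.11 for the members (red), 1.21 for the adaptors, 0.79 for the macrophage markers and -0.02 for the protein ligands.

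Beyond the 10 members, lists of family relatives held 41 symbols, of which 34 were in the table and 14 were tested. Of these 14, 7 rose, 0 fell and 7 were not called, beside 7.16% higher and 4.48% lower over all genes tested. All 3 Sirpb1 genes, short-tailed relatives of Sirpa, rose. Sirpb1c averaged 6.41 ± 1.58 TPM in anti-CTLA-4 skin and 1.54 ± 0.650 TPM with the bacterium alone, with a log2 difference of 1.56 ± 0.22 (SE; limma adjusted p = 0.00372). Sirpb1b had 4.16 and 1.11 TPM and Sirpb1a 2.18 and 0.489 TPM in the same order, and both reached 1 TPM in fewer than 4 libraries without the antibody, so they passed the filter through the antibody group. Lilr4b, which encodes gp49A, the copy of gp49B without an inhibitory tail, averaged 76.6 ± 4.42 TPM and 35.9 ± 9.60 TPM in the same order (log2 difference 1.11; adjusted p = 0.00567). Pira2, an activating partner of Pirb, had 3.87 TPM with the antibody and 1.57 TPM without (adjusted p = 0.0237), while Lilra6 and Pira6 were not called. Pira6 also reached 1 TPM in fewer than 4 libraries without the antibody and passed the filter through the antibody group. The Sirpb1 genes are close copies of each other and share the uncertainty given above for Lilrb4a and Pirb.

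In the other families fewer relatives had levels to test. Both Pilrb genes, activating partners of Pilra, were tested and neither was called. Pilrb2 had 2.24 TPM with the antibody and 1.60 TPM without (adjusted p = 0.118). Of the Siglec relatives 2 of 7 were tested. Siglece, an inhibitory sialic acid receptor of mouse neutrophils and macrophages, had 1.71 ± 0.498 TPM with the antibody and 0.872 ± 0.261 TPM without, and was not called (adjusted p = 0.0504). It reached 1 TPM in 2 libraries with the bacterium alone and passed the filter through the antibody group. None of the 6 Trem relatives passed the filter. Trem1, an activating receptor of neutrophils and monocytes, had 1.61, 0.965, 2.05 and 1.17 TPM in anti-CTLA-4 skin, against 0, 0.082, 0.310, 0.144 and 0.547 TPM with the bacterium alone. Those values were too low for the filter, so no test is given, and the groups did not overlap.

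Of the 10 members, 3 share a cluster of Cd300 genes of 244 kb on chromosome 11, from 114890041 to 115133992. The table lists 10 genes there. Cd300a, Cd300lb, Cd300ld, Cd300c2 and Cd300lf passed the filter, and all 5 rose, beside 7.16% of all genes tested. Of these, Cd300a, Cd300ld and Cd300lf are the members already counted above, and Cd300lf passed the filter through the antibody group. Cd300c2 averaged 17.6 ± 2.94 TPM in anti-CTLA-4 skin and 6.58 ± 1.42 TPM with the bacterium alone (log2 difference 1.30 ± 0.16; limma adjusted p = 0.00245). Cd300lb, an activating member that uses DAP12, averaged 5.33 ± 1.70 TPM and 2.16 ± 0.680 TPM in the same order, with groups that overlapped (adjusted p = 0.0217). The other 5 genes stayed under the filter, and 2 of them, Cd300ld4 and Cd300ld5, are listed with the same position and the same values. Cd300lg, a relative of vascular cells that lies outside the cluster, had 3.57 ± 0.619 TPM with the antibody and 3.86 ± 0.838 TPM without and was not called (adjusted p = 0.777).

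**Figure D4:**
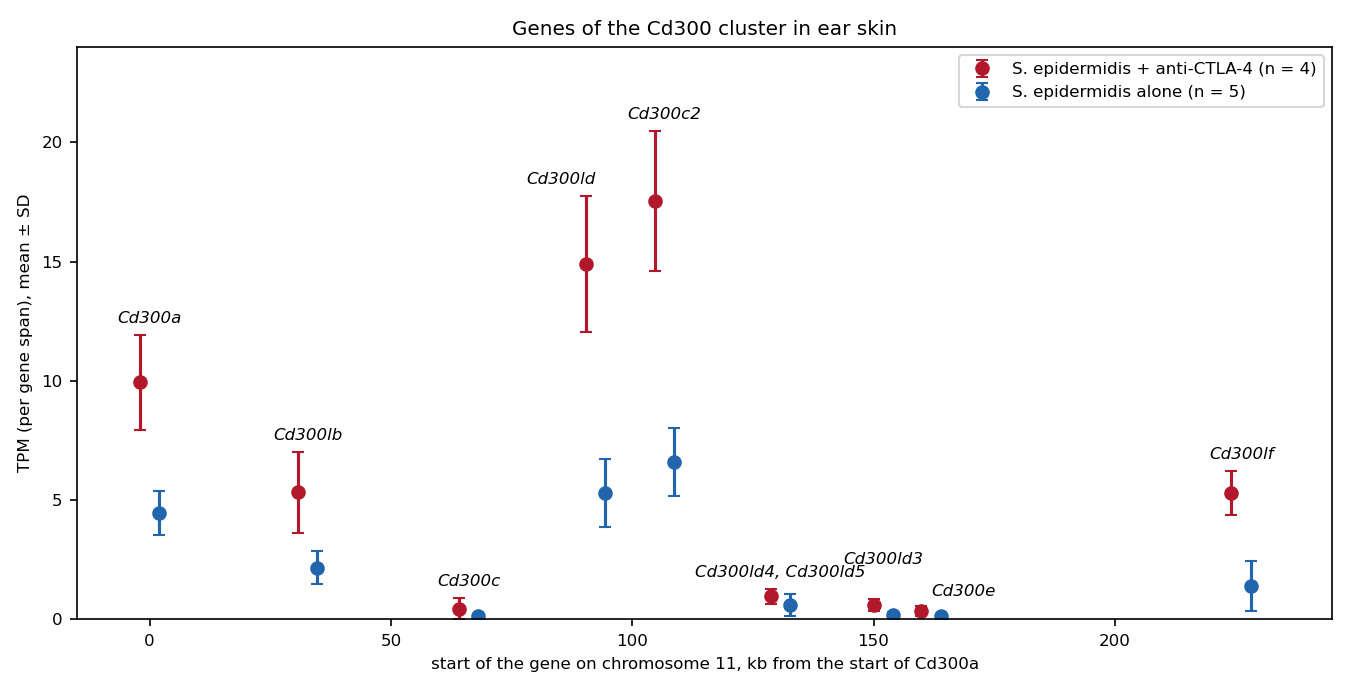
Mean and SD in TPM per gene span of the 10 Cd300 genes of the chromosome 11 cluster (red, anti-CTLA-4, n = 4; blue, S. epidermidis alone, n = 5), placed by the distance of each gene's start from that of Cd300a in kb. The 5 genes with the higher levels have higher means in anti-CTLA-4 skin, and the other 5 average under 1 TPM in both groups.

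Levels of receptors of the same family were also set against each other within each library, as a description. The log2(TPM + 1) of Sirpb1c minus that of Sirpa ran from -2.69 to -2.37 in anti-CTLA-4 skin and from -3.60 to -2.88 with the bacterium alone, without overlap. Sirpb1c therefore stood closer to Sirpa in every anti-CTLA-4 library. Cd300ld minus Cd300lf ran from 1.02 to 1.65 with the antibody and from 0.45 to 1.98 without it. The groups overlapped for that pair, for both Pilrb genes set against Pilra, for Pira6 against Pirb, and for Trem1 against Trem2, both of which activate. Lilra5, set against Lilrb4a, had at most 2 reads in any library, and its comparison follows Lilrb4a alone.

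The signalling partners of these receptors were read from lists of adaptors, kinases, phosphatases and protein ligands, 25 genes that were all tested. Of these 25, 16 rose, 1 fell and 8 were not called, beside 7.16% higher and 4.48% lower over all genes tested. All 3 adaptors rose. Fcer1g, the Fc receptor gamma chain, averaged 79.5 ± 8.75 TPM in anti-CTLA-4 skin and 34.4 ± 7.81 TPM with the bacterium alone (log2 difference 1.21; limma adjusted p = 0.00329). Tyrobp, which encodes DAP12, averaged 49.1 ± 7.37 TPM and 21.7 ± 5.94 TPM in the same order (1.17; adjusted p = 0.00600). Hcst, which encodes DAP10 and also serves lymphocytes, averaged 11.1 ± 3.05 TPM and 3.36 ± 0.943 TPM (1.47; adjusted p = 0.00287). All 6 genes of the kinase list rose. That list also holds Plcg2, which encodes a phospholipase and not a kinase and had a log2 difference of 0.36. The kinases differed by 0.41 (Btk) to 1.21 (Fgr). Syk, the kinase that DAP12 and the Fc receptor gamma chain engage, differed by 0.94, and Lyn, which phosphorylates the inhibitory motifs, by 1.01.

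Among the phosphatases recruited by the inhibitory tails, 2 of 3 rose. Ptpn6, which encodes SHP-1 of blood cells, averaged 32.9 ± 3.97 TPM in anti-CTLA-4 skin and 20.7 ± 1.29 TPM with the bacterium alone (log2 difference 0.64; limma adjusted p = 0.00344). Inpp5d, which encodes the lipid phosphatase SHIP-1, had a log2 difference of 0.59 (adjusted p = 0.00564). Ptpn11, which encodes SHP-2 and is made by most cells, averaged 16.0 ± 1.16 TPM and 18.0 ± 0.868 TPM in the same order and was not called (adjusted p = 0.121).

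Of 13 protein ligands 5 rose and 1 fell, and their median log2 difference was -0.02. Spn, which encodes the leukocyte sialoglycoprotein CD43, a partner of CD169, averaged 43.9 ± 7.69 TPM in anti-CTLA-4 skin and 18.2 ± 3.96 TPM with the bacterium alone (log2 difference 1.24; limma adjusted p = 0.00396). The MHC class I genes B2m (0.96; adjusted p = 0.00903), H2-D1 (0.63; adjusted p = 0.0104) and H2-K1 (0.67; adjusted p = 0.0171), ligands of Pirb, also rose. Cd47, the ligand of SIRP-alpha, averaged 27.7 ± 1.92 TPM with the antibody and 23.0 ± 1.00 TPM without (0.26; adjusted p = 0.0252). Angptl2, a secreted ligand of Pirb, was the gene that fell, at 13.7 ± 1.88 TPM with the antibody and 18.5 ± 2.33 TPM without (-0.41; adjusted p = 0.0441). Apoe, an apolipoprotein bound by TREM2, was not called (-0.25; adjusted p = 0.138).

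The genes most like the mean of the 7 called members over the 9 libraries were Arhgap30 (Pearson r = 0.993), Hcls1 (0.991), Evi2a (0.990), Ms4a6c (0.989) and Fcgr3 (0.989), of 13884 protein-coding genes outside the lists. These points share the difference between the groups. With the group means removed, the correlations were 0.94, 0.92, 0.91, 0.90 and 0.90 in that order, over 9 libraries. The genes were chosen by their correlation over these same libraries, so the second set of values is not independent of that choice. Hcls1 averaged 12.4 ± 0.998 TPM in anti-CTLA-4 skin and 5.18 ± 0.878 TPM with the bacterium alone. Fcgr3, an activating Fc receptor, averaged 43.4 ± 1.20 TPM and 25.9 ± 3.26 TPM in the same order.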

How the data were processed

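RNA of whole ear skin was sequenced in 9 libraries, 4 with S. epidermidis and anti-CTLA-4 and 5 with S. epidermidis alone, grouped by their titles. Per the labels' protocols, 500 ng of RNA from a region of about 1 mm went into each library. The authors deposited TPM per gene; per the submitters' processing notes, STAR, HOMER, DESeq2 and mm10 were used, and no source used here gives their versions, roles or the annotation. The deposited length was found to be the gene span, and reads were recovered from it.

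Genes reaching 1 TPM in 4 or more libraries were compared on log2(TPM + 1) by limma 3.58.1 in R 4.3.3 with a mean trend, two-sided, with Benjamini-Hochberg adjustment over all 15704 genes and a threshold of 0.05. The pseudocount understates folds of low genes. A second fit subtracted each library's mean of a marker list. Most genes were called in it, so adjustment hardly changed p-values near the threshold, and all genes shared the subtracted mean's error. The labels give no batch. Members and lists were chosen with earlier results of these data known. Named were all members, up to 4 tested genes with the smallest p per family or pathway list, and the 5 genes most alike. Plcg2, Btk, Cd47, Angptl2, Apoe, Fcgr1, Mertk, the other resident macrophage markers, Trem1 and the Cd300 cluster were named after their values were seen. Alternatives were other pseudocounts, filters, scalings, variance settings and gene sets, a replicate block, each library left out, and, chosen after seeing the data, voom on the recovered reads and the resident and monocyte lists.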

Additional observations from a re-analysis of the deposited data

Results flagged for a closer look

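In 86 groups of libraries checked, over 43 genes, 4 values stood apart from the rest of their group by Dixon's test at 95%, which chance does in about 1 in 20 groups. Cd33 had 25.9 TPM in replicate 4 with the bacterium alone, against 17.3 to 19.5 TPM in the other 4 libraries of that group. Pilrb2 had 2.25 TPM in replicate 2 with the bacterium alone, against 1.27 to 1.54 TPM in the others. Hcst had 4.99 TPM in replicate 3 with the bacterium alone, against 2.64 to 3.25 TPM in the others. Arhgap30 had 24.7 TPM in replicate 4 of the anti-CTLA-4 group, against 31.7 to 32.9 TPM in the other 3.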

How the results depend on the processing

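The 7 calls among the members held under every alternative that tested the gene, 21 for Cd300lf, which a filter of 5 TPM left untested, and 22 for the other 6. Trem2 and Cd33 were not called in any, and Pilra was called in 4: the replicate block (adjusted p = 0.0387), protein-coding genes only (0.0444), voom on recovered reads (0.0180) and without replicate 5 of the group with the bacterium alone (0.0194). Over all genes, 1124 were called higher and 704 lower; these counts were 1314 and 1429 after quantile normalization, 1302 and 1313 at a common median, 1205 and 1306 without the 50 most abundant genes in the total, 1897 and 1204 by voom, 706 to 1094 and 337 to 703 with a library left out, and 593 and 88 with the replicate block. Same-numbered libraries did not deviate together (correlations of -0.009, 0.018, -0.091 and -0.093). So few correlations cannot exclude that the numbers pair the libraries, and the labels do not say. The block called 8 members higher.

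Set against the macrophage markers, the 5 members called higher became 4 with robust variance, protein-coding genes only or the replicate block. They became 3 with array weights or log2(TPM + 0.1), and 2 at a filter of 5 TPM (where Cd300lf was not tested). The count was 1 against leukocyte markers, 0 against monocyte markers and 2 to 5 with a library left out. The 3 called lower became 2 with log2(TPM + 0.1), log2(TPM + 0.5), no expression filter or the replicate block, and 4 against monocyte markers. They became 1 at 5 TPM (where Trem2 and Pilra were not tested), 1 against resident macrophage markers and 1 to 3 with a library left out. Against monocyte markers the difference turned negative for Siglec1 (-0.13), Sirpa (-0.69), Pirb (-0.35), Cd300lf (-0.10), Cd300ld (-0.23), Lilrb4a (-0.29) and Cd300a (-0.58), 7 members in all, of which Sirpa was called lower. Apart from the untested genes, the cause of these changes was not tested. Depth limits Cd300lf, Trem2 and Pilra most, with lowest libraries of 13, 23 and 31 reads.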
